A study of Mus musculus with 9 samples.

Results

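Lysosomal enzyme and membrane genes were followed in whole mouse retina through a list of 40 gene symbols, matched by symbol to the count tables. The tables held 39 of the 40, among 21769 genes in all, and all 39 were among the 14300 genes with enough counts to be tested. The list comprised 10 proteases, 8 glycosidases, 5 enzymes of glycosaminoglycan breakdown, 10 proteins of lipid breakdown and transport, and 6 membrane proteins or secreted factors. Tfeb was found only under its older symbol Tcfeb, and its values are given separately without being counted among the 39.

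Polyadenylated RNA was sequenced in 9 libraries, 3 per group, and each library was made from 2 retinae. The rd10 retinae, taken at postnatal day 61, came from mice labelled rd10 and were described as degenerated. In this strain a mutation of Pde6b, a subunit of the rod phosphodiesterase, leads to the loss of rods after birth. The GFP retinae came from mice labelled as expressing GFP (green fluorescent protein) and were described as normal. Their age was read as postnatal day 42 from a line written as Gg13, the only age left for that group. The promoter and cell type that drive GFP are not given in the sources used here. The WT retinae came from wild type mice at postnatal day 48 and were described as normal. Age therefore differed with genotype, and their effects cannot be told apart.

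Lysosomes are acidic organelles in which hydrolases take apart proteins, sugars, glycosaminoglycans and lipids delivered by endocytosis, phagocytosis and autophagy. Many of their genes share a palindromic element with the core CACGTG, through which the transcription factor TFEB is known to raise their transcription. In the retina these organelles digest shed photoreceptor discs in the pigment epithelium, and debris of dying cells in microglia and Müller glia. Inherited loss of many of these enzymes causes storage diseases, several of which damage the retina.

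The libraries held 9597635 to 12149448 counts each. Levels are in CPM, counts per a common library total, where a level of 1 stood for 9.60 to 12.1 counts. They were scaled by TMM (the trimmed mean of M values), which evens out libraries over the bulk of genes after trimming the most extreme. A set of 17 rod genes summed to 1449 to 2228 CPM in rd10, 102700 to 115900 CPM in GFP and 95450 to 129600 CPM in WT. Lens crystallin and lens membrane genes summed to over 100 CPM in 4 libraries, rd10 2, GFP 1, WT 2 and WT 3, at 1455 to 3737 CPM, and to 4.57 to 40.8 CPM in the other 5. Results without these 4 libraries are given with the counts below. All of these are whole-tissue values, in which fewer cells of a type and less RNA per cell cannot be told apart.

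In rd10 against WT, 10 of the 39 genes were higher and 5 were lower at an adjusted p under 0.05, and 24 did not pass. The 10 higher genes were Arsb, Lipa, Ctsc, Ids, Idua, Manba, Ctsh, Gm2a, Glb1 and Lamp2, with log2 fold changes between 0.59 and 0.99. The 5 lower genes were Gla, Npc1, Cln3, Ctsf and Lamp1, with log2 fold changes between -0.79 and -0.52. The higher genes made up 25.6% of the list, against 14.5% of all genes tested. The lower genes made up 12.8%, close to the 13.9% of all genes tested. No member passed with a change of 2-fold, a size reached by 6.12% of all genes tested on the higher side and by 6.78% on the lower side. Manba came closest at 1.99-fold. The median log2 fold change was 0.12 over the members and -0.03 over all genes tested.

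These counts depended on how the libraries were scaled. Against library totals, 18 members were higher and 1 was lower (46.2% and 2.56%, against 25.2% and 7.55% of all genes tested). Against totals without rod and cone genes, 14 were higher and 2 were lower (35.9% and 5.13%, against 19.2% and 10.1%). Against the summed counts of 26 genes of inner retinal neurons, 0 were higher and 19 were lower by edgeR (1 and 21 at an unadjusted p under 0.05). The 48.7% lower stood beside 51.3% of all genes tested, and 1.79% of all genes were higher. Against 15 Müller glia genes 0 were higher and 26 were lower, also at an unadjusted p under 0.05, or 66.7% lower beside 63.2% of all genes tested, with 0.531% of all genes higher. The lower shares on these last scales were close to those of all genes. The median of all genes tested moved with the scale, to 0.25, 0.10, -0.69 and -1.02 in that order, and the median of the members moved to 0.41, 0.26, -0.55 and -0.87. A change of scale shifts all genes nearly alike, so the members stayed above all genes tested by a similar distance on each.

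**Figure D1:**
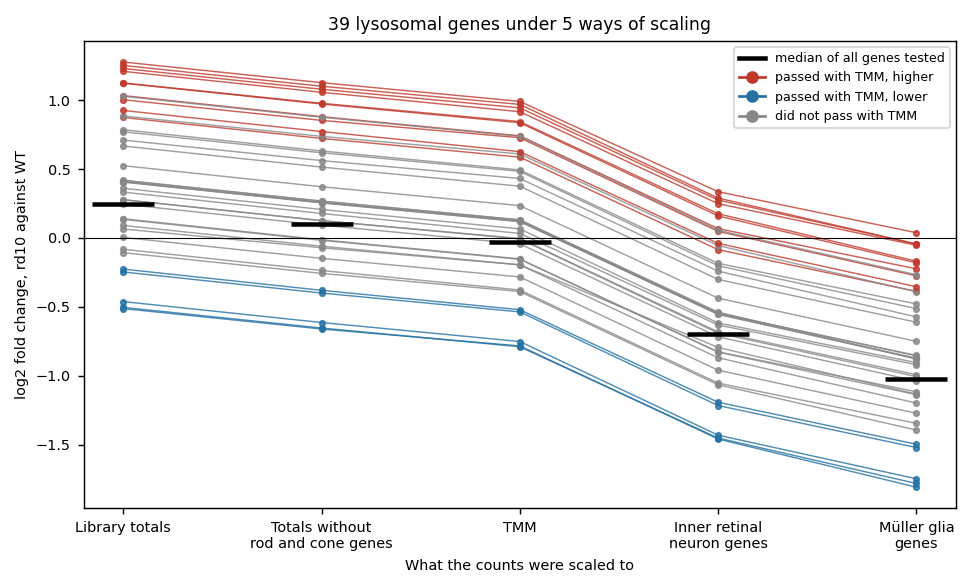
Log2 fold change in rd10 against WT (y axis) of each of the 39 genes, 1 line per gene, under 5 ways of scaling the libraries (x axis); black bars mark the median of all genes tested. The lines keep their spacing while the whole set shifts, from a member median of 0.41 with library totals to -0.87 with Müller glia genes.

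The replicate structure limited the counts as well. With each library left out in turn, 5 to 16 members were higher and 1 to 5 were lower. Calls over all genes moved too, from 8.78% higher and 8.21% lower without rd10 1 to 19.9% and 17.4% without GFP 2. The count of higher members was 6 without rd10 1, 5 without rd10 2, 6 without rd10 3, 6 without WT 1 and 16 without GFP 2. The lower count was 1 when any one rd10 library was left out, 3 without WT 1, and 2 without GFP 3, WT 2 or WT 3. Arsb, Ctsc, Ids, Lipa and Gla passed in each of these 9 fits. Ctsh did not pass when rd10 1, rd10 3, WT 1 or WT 2 was left out (adjusted p 0.0553 to 0.0688, edgeR), and Idua when rd10 2 or WT 2 was (0.056 and 0.0573). Gm2a did not pass when any one of the rd10 libraries, WT 1 or WT 3 was left out (0.0615 to 0.0831), and Npc1 when any one of the rd10 libraries, WT 1 or WT 2 was (0.0541 to 0.11). Without the 4 libraries that held lens RNA, 0 members passed by edgeR in rd10 against WT, where WT was left with 1 library, and at an unadjusted p under 0.05 there were 7 higher and 2 lower. Over all genes, 86 were then higher and 457 lower, and the member median was 0.35 against 0.01 for all genes.

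In rd10 against GFP, which shares the rd10 libraries with the comparison above, 11 members were higher and 4 were lower. They made up 28.2% and 10.3% of the list, against 15.2% and 15% of all genes tested. A change of at least 2-fold was reached on the higher side by 5 members, Ctsc, Manba, Gm2a, Ctsh and Arsb, and by 6.64% of all genes tested. On the lower side 0 members and 7.12% of all genes tested did so. The 10 genes higher against WT were also higher against GFP, with Grn in addition. Of the 5 genes lower against WT, Gla, Npc1, Cln3 and Ctsf were also lower against GFP, and Lamp1 did not pass there (log2 fold change -0.45, adjusted p = 0.0699). The split was 21 higher and 1 lower against library totals (53.8% and 2.56%, against 28.3% and 7.38% of all genes tested). It was 17 and 1 without rod and cone genes (43.6% and 2.56%, against 21.7% and 9.84%). On the scale of inner retinal neuron genes it was 2 and 17 (5.13% and 43.6%, against 2.31% and 50.5%). The lower count was 1 when any one of the rd10 libraries or GFP 3 was left out, and 2 without GFP 1. Without the libraries that held lens RNA, which left 1 WT library in the fit, the member median log2 fold change against GFP was 0.20. That of all genes tested was -0.003, and 25 members had a positive log2 fold change and 14 a negative one.

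In GFP against WT, 0 members passed, as did 0% of all genes tested in either direction. At an unadjusted p under 0.05 there were 0 members and 214 of all genes, and DESeq2 called 0 members and 2 of all genes. The member log2 fold changes ran from -0.33 for Ctsh to 0.14 for Lipa. In 0 members did the 3 GFP libraries lie all above or all below the 3 WT libraries, against 1.52% and 2.46% of all genes tested.

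Across libraries, 18 members were higher in all 3 rd10 libraries than in all 3 WT libraries, and 8 were lower in all 3. These were 46.2% and 20.5% of the list, against 26.1% and 24.4% of all genes tested. Against GFP, 19 members were higher and 8 lower in all 3 rd10 libraries (48.7% and 20.5%, against 25.1% and 23.1% of all genes tested). Set against all 6 normal libraries, the 3 rd10 libraries lay above in 18 members (46.2%, against 20.7% of all genes tested) and below in 6 members (15.4%, against 19%). The 6 below were Ctsb, Ctsf, Lamp1, Gla, Npc1 and Cln3.

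**Figure D2:**
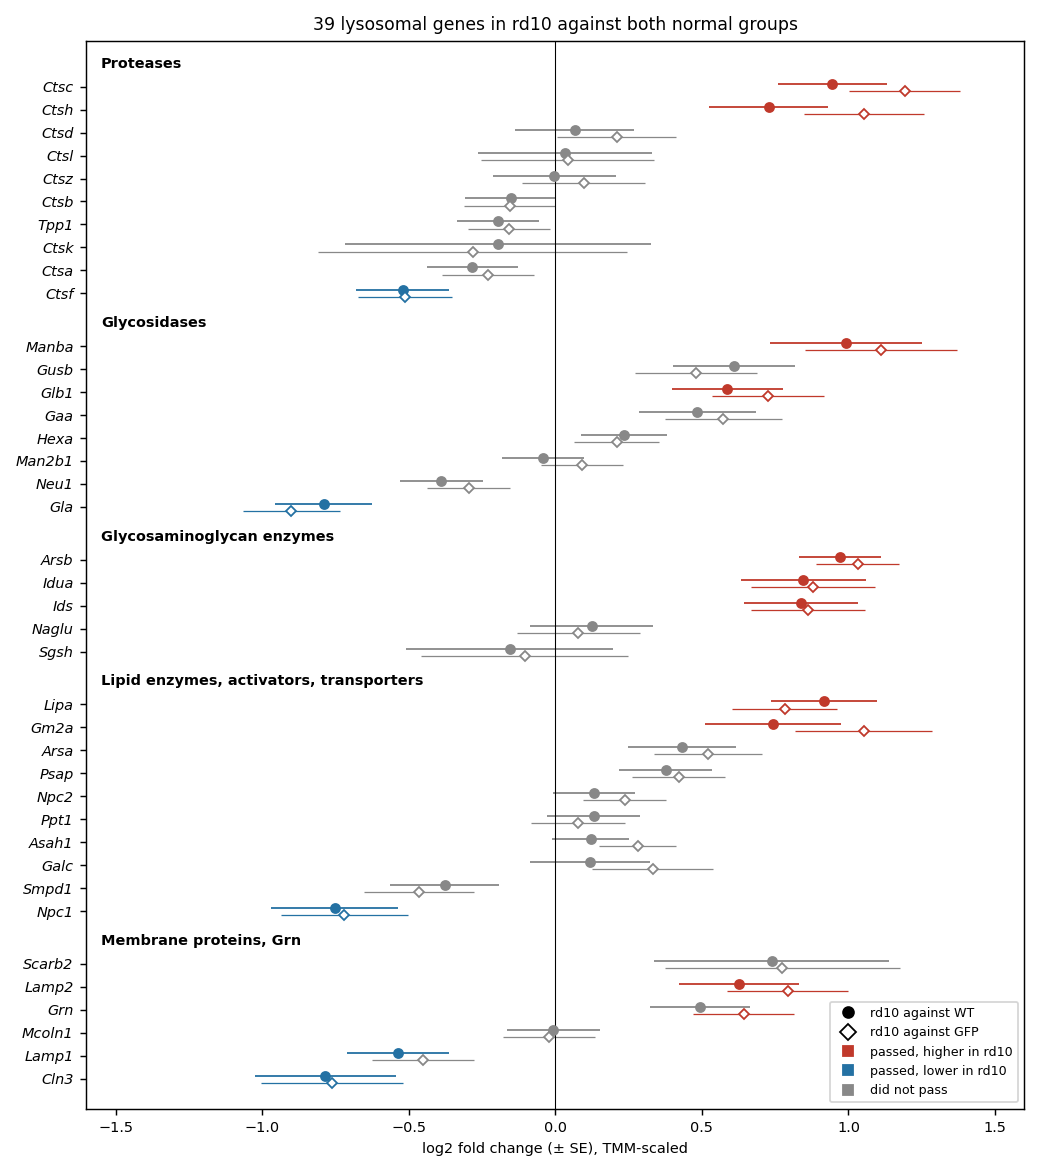
Log2 fold change ± SE (x axis) of each of the 39 genes in rd10 against WT (filled circles) and rd10 against GFP (open diamonds), grouped by role (y axis); colour marks genes that passed. Both higher and lower genes occur among proteases, glycosidases, lipid proteins and membrane proteins, and the 3 glycosaminoglycan enzymes that passed are all higher.

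Summed over the 39 genes, transcripts reached 5232 to 5609 CPM in rd10, 4521 to 5002 CPM in GFP and 4567 to 5740 CPM in WT, so rd10 and WT overlapped. As a share of each library's total count, without TMM, the members took 0.61% to 0.63% in rd10, 0.411% to 0.465% in GFP and 0.433% to 0.513% in WT, and rd10 did not overlap with either. Scaled to exon length, the highest level was that of Psap, the precursor of the saposins that present sphingolipids to their hydrolases, at 464 CPM per kilobase in rd10, 347 in GFP and 358 in WT. Ctsd was next, with 242 CPM per kilobase in rd10, 209 in GFP and 231 in WT, and then Ctsb with 124, 138 and 138. Ids ranked 8 by this measure in rd10 and 16 in WT, at 48.1 CPM per kilobase in rd10, 26.5 in GFP and 26.9 in WT. Ctsk, a collagen-degrading protease best known from osteoclasts, was the lowest in rd10 at 1.18 and in WT at 1.36 CPM per kilobase, while in GFP it stood at 1.47 and Manba was the lowest at 1.32.

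Among the 10 proteases, 2 exopeptidases rose, 1 endopeptidase fell and 7 did not pass in rd10 against WT. In the same comparison 14.5% of all genes tested rose and 13.9% fell. Ctsc encodes cathepsin C, a dipeptidyl peptidase that activates the serine proteases of immune cell granules, and lies on mm9 at chr7:95426603-95459385. It had 31.3, 33.5 and 30.6 CPM in rd10 libraries 1, 2 and 3, against 12.2, 12.03 and 17.2 CPM in GFP and 15.1, 17.2 and 16.9 CPM in WT. Every rd10 library was far above every normal one. The log2 fold change was 0.95 ± 0.19 (SE, adjusted p = 0.00472) against WT and 1.19 (adjusted p = 0.0013) against GFP. Ctsh, which encodes the aminopeptidase cathepsin H, averaged 42.6 ± 2.14 CPM in rd10, 20.4 ± 1.44 in GFP and 25.6 ± 7.15 in WT (SD, n = 3 each). Its log2 fold change was 0.73 against WT (edgeR adjusted p = 0.0228) and 1.05 against GFP.

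Ctsf encodes cathepsin F, a cysteine endopeptidase, and lies on mm9 at chr19:4855129-4860912. It had 159, 155 and 136 CPM in rd10, against 216, 211 and 217 CPM in GFP and 184, 259 and 204 CPM in WT. The rd10 libraries were all below the normal ones, but the gap between the nearest rd10 and WT libraries was smaller than the range within WT. The log2 fold change was -0.52 ± 0.16 (SE, adjusted p = 0.0338) against WT. With any one of rd10 1, rd10 2, rd10 3, GFP 3, WT 2 or WT 3 left out, the adjusted p was 0.0594 to 0.135.

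The remaining 7 proteases did not pass. Ctsd, the main lysosomal aspartic protease, averaged 515 ± 59.8 CPM in rd10, 445 ± 34.9 in GFP and 492 ± 136 in WT (SD, n = 3 each). Ctsb, a cysteine protease with both endopeptidase and carboxypeptidase activity, averaged 588 ± 6.77 CPM in rd10, 654 ± 34.7 in GFP and 653 ± 99.0 in WT. Its 3 rd10 libraries lay below all 6 normal ones, though the log2 fold change was -0.15 with an adjusted p of 0.485 against WT. Ctsb overlaps Fdft1, Ctsz overlaps Th1l, and Ctsa overlaps Neurl2 and Pltp, each on the other strand. Ctsl, a cysteine endopeptidase, had a log2 fold change of 0.03 against WT, and the carboxypeptidase gene Ctsz one of 0.00. Tpp1, the tripeptidyl peptidase lost in late infantile Batten disease, was at -0.20, Ctsk at -0.20, and Ctsa, the carboxypeptidase that protects sialidase and galactosidase, at -0.28.

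Of the 8 glycosidases, which remove sugars from glycoproteins, glycolipids and glycogen, 2 rose, 1 fell and 5 did not pass. The shares of all genes tested that rose and fell were 14.5% and 13.9%. Gla encodes alpha-galactosidase A, the enzyme deficient in Fabry disease, and lies on mm9 at chrX:131122708-131135544. It had 13.4, 16.6 and 13.1 CPM in rd10, against 25.2, 27.3 and 28.3 CPM in GFP and 25.5, 25 and 24.2 CPM in WT. The normal libraries lay close together and the rd10 libraries well below them. The fall of 1.73-fold against WT had a log2 fold change of -0.79 ± 0.17 (SE, adjusted p = 0.00626), and against GFP it was -0.90 (adjusted p = 0.00306). On the scale of inner retinal neuron genes the log2 fold change was -1.45, and on that of Müller glia genes -1.78.

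Manba, which encodes beta-mannosidase, had the highest fold change among the members against WT. It had 9.95, 12.4 and 9.66 CPM in rd10, against 3.99, 4.92 and 5.62 CPM in GFP and 3.94, 6.25 and 5.61 CPM in WT. The rd10 libraries lay above all normal ones, which overlapped with each other, and the log2 fold change was 0.99 ± 0.26 (SE, adjusted p = 0.0168) against WT. Without rd10 2 the adjusted p was 0.0612. Across the scalings its log2 fold change ran from 0.04 with Müller glia genes to 1.28 with library totals. Glb1, which encodes beta-galactosidase, averaged 21.1 ± 2.17 CPM in rd10, 12.7 ± 1.25 in GFP and 13.96 ± 2.23 in WT (SD, n = 3 each), with a log2 fold change of 0.59 against WT (edgeR adjusted p = 0.041). Glb1 overlaps Tmppe on the same strand, and it did not pass when any one of the rd10 libraries, WT 1 or WT 3 was left out.

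The other glycosidases did not pass against WT. Gusb, which encodes beta-glucuronidase, had a log2 fold change of 0.61 with an adjusted p of 0.0502. Gaa, the glycogen-degrading acid alpha-glucosidase deficient in Pompe disease, was at 0.48, and Hexa, the alpha subunit of beta-hexosaminidase, at 0.24. In all of these the 3 rd10 libraries lay above the 3 WT libraries. Man2b1, an alpha-mannosidase of glycoprotein breakdown, was at -0.04. Neu1, which encodes the lysosomal sialidase, was at -0.39 with an adjusted p of 0.0621, and its rd10 libraries lay below those of WT.

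Of the 5 enzymes that break down glycosaminoglycans, 3 rose and 2 did not pass, beside 14.5% of all genes tested that rose. Those that rose were Arsb, Idua and Ids. Arsb encodes arylsulfatase B, which removes sulfate from N-acetylgalactosamine, and lies on mm9 at chr13:94541634-94712971. It had 98.1, 101 and 121 CPM in rd10, against 54.5, 48.3 and 53.7 CPM in GFP and 58.8, 51.9 and 52.6 CPM in WT. The 6 normal libraries fell in a narrow band, and the lowest rd10 library was well above it. The log2 fold change of 0.97 ± 0.14 (SE) had the smallest adjusted p of the members against WT, 7.77e-04, and it was 1.03 against GFP (adjusted p = 4.97e-04).

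Ids, which encodes iduronate sulfatase, had 248, 215 and 255 CPM in rd10, against 152, 103 and 140 CPM in GFP and 164, 126 and 112 CPM in WT. All rd10 libraries were above the normal ones, and the log2 fold change against WT was 0.84 ± 0.20 (SE, adjusted p = 0.0104). Idua, which encodes alpha-L-iduronidase, averaged 29.8 ± 3.97 CPM in rd10, 16.1 ± 3.83 in GFP and 16.5 ± 2.32 in WT (SD, n = 3 each), with a log2 fold change of 0.85 (edgeR adjusted p = 0.0145). Idua overlaps Slc26a1 and Sgsh overlaps Card14, each on the other strand. Naglu and Sgsh, enzymes of heparan sulfate breakdown, in which Idua and Ids also take part, had log2 fold changes of 0.12 and -0.16, and in both the groups overlapped.

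Of the 10 genes of lipid breakdown and transport, 2 rose, 1 fell and 7 did not pass. These counts stand beside 14.5% of all genes tested that rose and 13.9% that fell. Lipa encodes the acid lipase that frees cholesterol from its esters, and lies on mm9 at chr19:34566806-34601964. It had 37.8, 41.6 and 35.7 CPM in rd10, against 22.8, 20.7 and 23.1 CPM in GFP and 16.8, 24.5 and 19.3 CPM in WT. The rd10 libraries lay above all normal ones, and GFP lay within the range of WT. Its log2 fold change was 0.92 ± 0.18 (SE, adjusted p = 0.0046) against WT and 0.78 against GFP. Gm2a, the activator that presents a ganglioside to beta-hexosaminidase, averaged 73.1 ± 3.75 CPM in rd10, 35.2 ± 7.52 in GFP and 43.6 ± 13.1 in WT (SD, n = 3 each). Its log2 fold change was 0.74 against WT (edgeR adjusted p = 0.0361) and 1.05 against GFP (edgeR adjusted p = 0.00795).

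Npc1 encodes the membrane protein that exports cholesterol from the lysosome. It had 90.7, 78.7 and 102 CPM in rd10, against 182, 105 and 159 CPM in GFP and 164, 169 and 123 CPM in WT. The highest rd10 library lay just below the lowest GFP library. The log2 fold change was -0.75 ± 0.22 (SE, adjusted p = 0.0262) against WT and -0.72 (adjusted p = 0.0296) against GFP. Npc1 overlaps 3110002H16Rik on the other strand. Npc2, its soluble partner in cholesterol export, had a log2 fold change of 0.13 and did not pass.

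Psap had 1251, 1263 and 1308 CPM in rd10, against 1042, 863 and 950 CPM in GFP and 916, 1142 and 888 CPM in WT. The rd10 libraries were the 3 highest, but at a log2 fold change of 0.38 against WT the adjusted p was 0.099. Arsa, which encodes the sulfatase of myelin sulfatide, was likewise higher in all 3 rd10 libraries than in the normal ones, at a log2 fold change of 0.43 (adjusted p = 0.101). Asah1, the acid ceramidase, was at 0.12, with its rd10 libraries also above the normal ones. Ppt1, a thioesterase that removes palmitate from proteins, was at 0.13, and Galc, the galactosylceramidase deficient in Krabbe disease, at 0.12. Smpd1, the acid sphingomyelinase, was at -0.38 against WT (adjusted p = 0.15) and -0.47 against GFP (adjusted p = 0.0809).

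Of the 6 membrane proteins and factors, 1 rose, 2 fell and 3 did not pass, where 14.5% of all genes tested rose and 13.9% fell. The paired membrane glycoproteins Lamp1 and Lamp2, which form much of the lysosomal membrane, moved in opposite directions. Lamp2 averaged 113 ± 11.7 CPM in rd10, 64.9 ± 14.1 in GFP and 72.8 ± 16.2 in WT (SD, n = 3 each), with a log2 fold change of 0.63 (edgeR adjusted p = 0.0425). Lamp1, on mm9 at chr8:13159135-13175338, had 195, 192 and 215 CPM in rd10, against 304, 227 and 293 CPM in GFP and 253, 342 and 278 CPM in WT. Its rd10 libraries lay below all normal ones, the nearest being GFP 2. The log2 fold change was -0.54 ± 0.17 (SE, adjusted p = 0.041) against WT, and with any one of rd10 1, rd10 2, rd10 3, GFP 3, WT 2 or WT 3 left out the adjusted p was 0.0679 to 0.157. Lamp2 did not pass when any one of the rd10 libraries, WT 1 or WT 3 was left out. The signs stayed opposite with TMM, with library totals and without rod and cone genes. However, Lamp1 did not pass with library totals (log2 fold change -0.25) or without rod and cone genes (-0.40). On the scales of inner retinal neuron and Müller glia genes both fold changes were negative.

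Cln3, a lysosomal membrane protein lost in juvenile Batten disease, lies on mm9 at chr7:133714914-133727794. It had 18.6, 28.2 and 26.0 CPM in rd10, against 36.2, 50.4 and 37.3 CPM in GFP and 38.8, 32.3 and 54.6 CPM in WT. The rd10 libraries lay below all normal ones, and GFP lay within the range of WT. Its log2 fold change was -0.78 ± 0.24 (SE, adjusted p = 0.0341) against WT and -0.76 (adjusted p = 0.0359) against GFP. When any one of the rd10 libraries, GFP 3, WT 1 or WT 3 was left out, the adjusted p against WT was 0.0514 to 0.137.

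Scarb2, which carries glucocerebrosidase to the lysosome, had 99.5, 89.4 and 128 CPM in rd10, against 80.4, 23.0 and 81.2 CPM in GFP and 79.1, 69.0 and 41.5 CPM in WT. The rd10 libraries were above the others, but GFP 2 and WT 3 were far below their own groups. The log2 fold change of 0.74 had a SE of 0.40 and an edgeR adjusted p of 0.188. GFP 2 and WT 3 were also the lowest of their groups in Lamp2, Ids and Npc1, and the highest in Cln3. Grn, which encodes progranulin, a secreted protein that reaches the lysosome, averaged 75.3 ± 2.46 CPM in rd10, 48.2 ± 3.91 in GFP and 53.4 ± 12.2 in WT (SD, n = 3 each). Grn was higher against GFP (log2 fold change 0.64, edgeR adjusted p = 0.0182) and did not pass against WT (0.49, edgeR adjusted p = 0.0523). Mcoln1, a calcium-conducting channel of the lysosomal membrane, was at -0.01. Tcfeb, the row that carries the older symbol of the regulator Tfeb, averaged 13.1 ± 0.76 CPM in rd10, 10.6 ± 2.06 in GFP and 10.8 ± 2.19 in WT, with a log2 fold change of 0.28 (edgeR adjusted p = 0.376).

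**Figure D3:**
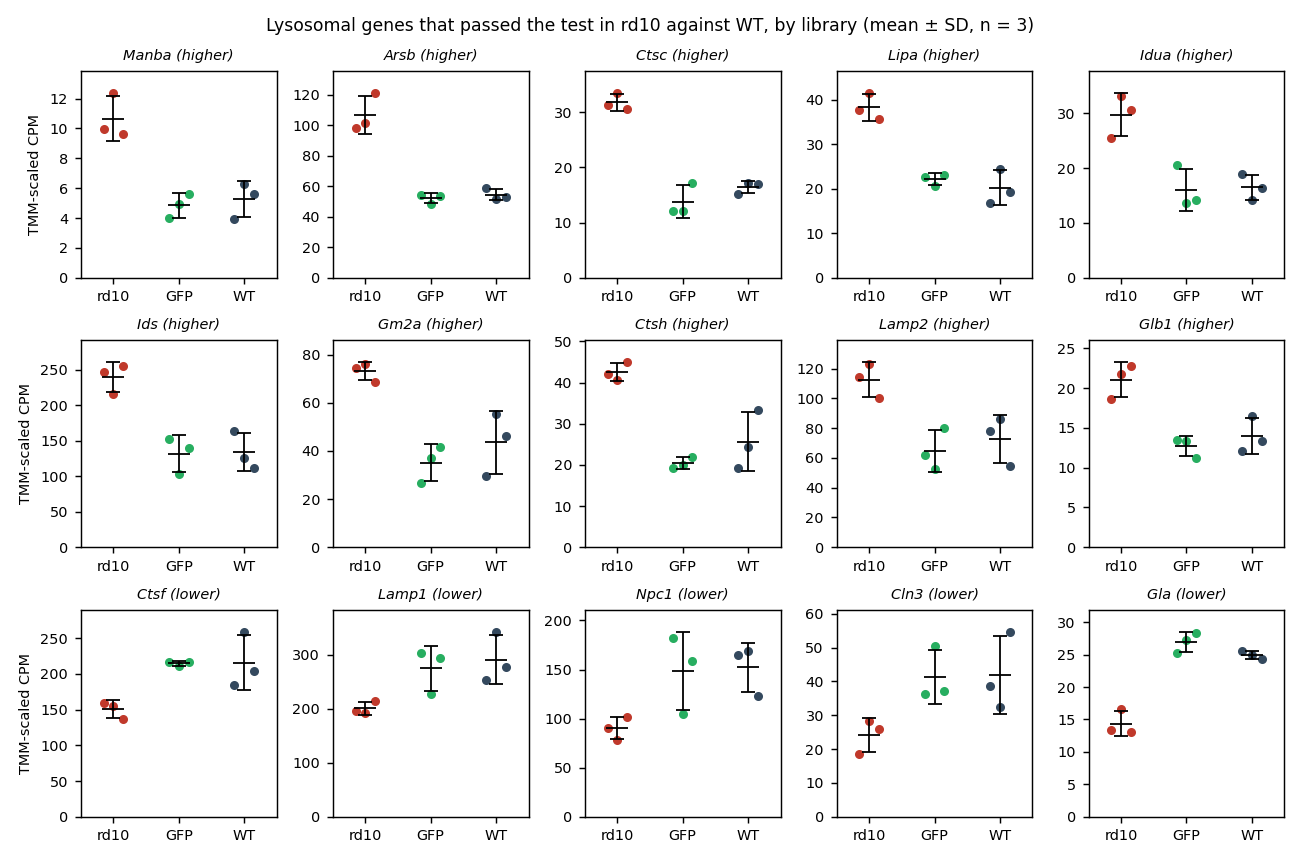
TMM-scaled CPM (y axis, from 0) of the 15 genes that passed in rd10 against WT, with 1 point per library in rd10, GFP and WT and bars for the mean ± SD of 3 libraries. The first 10 panels show higher genes and the last 5 lower genes. In all of them the rd10 points are apart from the WT points, which largely follows from choosing genes that passed this comparison.

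The promoters of the genes were read for the TFEB element, since the element is described for lysosomal genes as a group. The windows of RefSeq on build GRCm38.p6 run from 250 bases before to 50 bases after each gene's start, and 35 of the 39 members had at least 1. Ctsb, Ctsh, Npc1 and Asah1 had none to match. The hexamer CACGTG, which reads the same on both strands, was present in 13 of the 35 (37.1%), against 8.09% of 27025 genes with a promoter. Those 27025 include genes that were not tested here, whereas all members were. Among tested genes with a promoter, 1179 held the hexamer and 8950 did not. The longer TCACGTGA, which contains the hexamer, was present in 5 members (14.3%), against 1.13% of the same 27025 genes. The promoters printed here are those of the 4 lower genes that had one, of Glb1, the 1 higher gene with the hexamer, and of Arsb, the higher gene with the smallest adjusted p, which has none. Each runs 5′ to 3′ on the strand of the gene, and capitals mark CACGTG.
Gla (chrX:134600956-134601255, minus strand): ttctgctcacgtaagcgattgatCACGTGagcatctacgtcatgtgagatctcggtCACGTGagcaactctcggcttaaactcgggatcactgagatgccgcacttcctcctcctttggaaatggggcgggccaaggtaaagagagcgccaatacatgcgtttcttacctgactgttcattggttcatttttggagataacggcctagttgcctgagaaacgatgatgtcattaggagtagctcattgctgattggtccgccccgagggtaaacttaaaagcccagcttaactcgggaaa
Lamp1 (chr8:13158911-13159210, plus strand): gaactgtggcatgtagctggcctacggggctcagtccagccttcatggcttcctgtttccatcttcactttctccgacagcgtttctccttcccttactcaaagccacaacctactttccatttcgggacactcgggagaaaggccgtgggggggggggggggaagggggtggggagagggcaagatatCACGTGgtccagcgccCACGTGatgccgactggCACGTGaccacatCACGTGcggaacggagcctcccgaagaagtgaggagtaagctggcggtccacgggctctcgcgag
Cln3 (chr7:126583187-126583486, minus strand, the second of its promoters): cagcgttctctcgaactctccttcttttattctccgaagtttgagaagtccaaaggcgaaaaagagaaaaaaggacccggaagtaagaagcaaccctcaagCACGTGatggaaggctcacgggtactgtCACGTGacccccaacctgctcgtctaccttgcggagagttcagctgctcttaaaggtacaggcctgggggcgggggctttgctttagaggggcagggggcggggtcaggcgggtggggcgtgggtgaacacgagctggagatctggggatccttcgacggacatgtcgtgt
Ctsf (chr19:4854915-4855214, plus strand): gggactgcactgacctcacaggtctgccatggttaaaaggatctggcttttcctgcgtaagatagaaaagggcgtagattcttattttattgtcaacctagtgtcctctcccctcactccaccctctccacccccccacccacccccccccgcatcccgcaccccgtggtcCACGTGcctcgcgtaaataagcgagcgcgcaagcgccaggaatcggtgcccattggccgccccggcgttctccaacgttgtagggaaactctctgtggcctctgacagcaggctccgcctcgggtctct
Glb1 (chr9:114400828-114401127, plus strand): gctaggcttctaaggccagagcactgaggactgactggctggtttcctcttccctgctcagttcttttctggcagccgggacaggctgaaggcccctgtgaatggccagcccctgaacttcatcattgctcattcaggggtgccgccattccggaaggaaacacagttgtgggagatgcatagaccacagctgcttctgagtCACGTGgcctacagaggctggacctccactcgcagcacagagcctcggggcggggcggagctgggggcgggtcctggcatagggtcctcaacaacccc
Arsb (chr13:93771429-93771728, plus strand): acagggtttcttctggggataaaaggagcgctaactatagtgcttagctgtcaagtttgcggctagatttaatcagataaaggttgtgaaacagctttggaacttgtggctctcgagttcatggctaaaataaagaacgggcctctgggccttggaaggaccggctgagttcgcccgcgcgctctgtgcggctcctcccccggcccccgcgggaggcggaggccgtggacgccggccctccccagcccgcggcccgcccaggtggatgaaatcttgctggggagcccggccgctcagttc

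Lamp1 held 4 copies, the first bases of which lay 61, 45, 28 and 15 bases before the start. Gla held 2 copies, at 227 and 194 bases before the start, both within TCACGTGA. In Cln3 the copies lay 149 and 121 bases before the start, and the second lay within TCACGTGA. Ctsf held 1 copy at 79 bases and Glb1 1 copy at 48 bases before the start. By outcome in rd10 against WT, the hexamer was present in 4 of 4 lower members with a promoter and in 1 of 9 higher members. It was present in 8 of 22 members that did not pass, Ctsa, Ctsd, Ctsl, Gaa, Naglu, Sgsh, Arsa and Mcoln1. This split rests on the calls with TMM and all 9 libraries. Of the 4 lower members, Ctsf, Lamp1 and Cln3 each did not pass in 6 of the 9 fits that left out 1 library. The 13 members with the hexamer had a median log2 fold change of -0.01, and the 22 without it one of 0.44. For all tested genes with a promoter the medians were -0.08 with the hexamer and -0.04 without it. Over all tested genes with a promoter, the hexamer was present in 12.6% of 1410 lower genes, 9.15% of 1442 higher genes and 12% of 7277 genes that did not pass. These are matches of letters in a window and say nothing of binding by a factor.

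**Figure D4:**
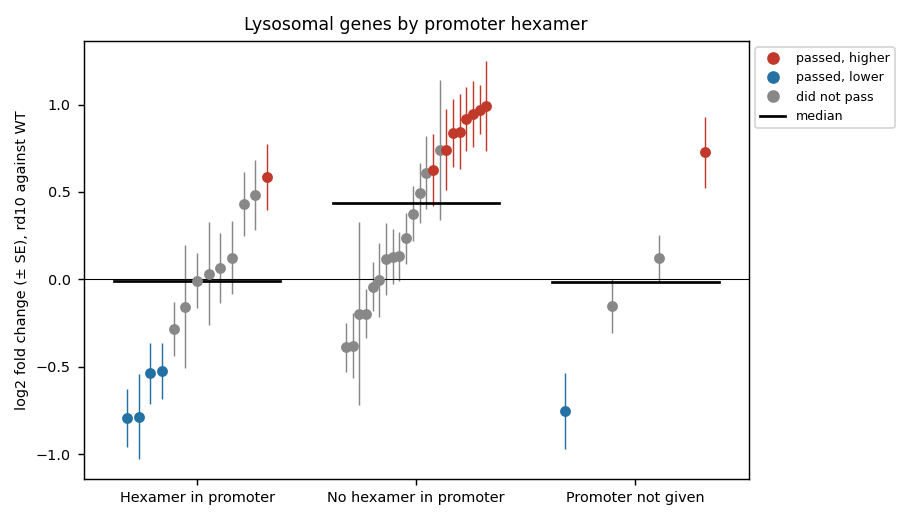
Log2 fold change ± SE in rd10 against WT (y axis) of the 39 genes, grouped by whether CACGTG occurs in a RefSeq promoter (x axis: present, absent, or no promoter given), with black bars at the group medians. The 4 lower genes with a promoter are in the group with the hexamer, whose median is -0.01. Of the 9 higher genes with a promoter, 8 are in the group without it, whose median is 0.44. Calls are those with TMM and all libraries, and those of Ctsf, Lamp1 and Cln3 did not hold with some libraries left out.

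Other lysosomal genes, taken as lists beside the members, gave further values. Of 21 other hydrolases tested, 6 rose and 4 fell in rd10 against WT, with a median log2 fold change of 0.01. Of all genes tested, 14.5% rose and 13.9% fell. Ctss, which encodes cathepsin S, the protease that processes the MHC class II invariant chain, averaged 57.7 ± 11.3 CPM in rd10, 16.8 ± 6.55 in GFP and 18.5 ± 3.56 in WT (SD, n = 3 each). Its log2 fold change was 1.63 against WT (edgeR adjusted p = 0.00197). Epdr1 had a log2 fold change of 0.88. On the lower side Arsg, a heparan sulfate sulfatase, averaged 8.47 ± 1.14 CPM in rd10, 25.8 ± 7.54 in GFP and 29.9 ± 6.44 in WT, with a log2 fold change of -1.80 (edgeR adjusted p = 5.86e-04). Arsg overlaps Slc16a6 on the other strand.

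Of 20 other lysosomal membrane proteins, 2 rose and 3 fell, with a median of 0.17, where 14.5% of all genes tested rose and 13.9% fell. Within this list 2 members of one family, Laptm5 and Laptm4b, moved in opposite directions with TMM. Their fold changes kept opposite signs on the scales of library totals, of totals without rod and cone genes and of inner retinal neuron genes, where that of Laptm5 did not pass (adjusted p = 0.0612). A further member of the family in the list, Laptm4a, did not pass, at 0.46 (edgeR adjusted p = 0.171). Laptm5, the form of immune cells, averaged 16.0 ± 3.85 CPM in rd10, 5.28 ± 2.26 in GFP and 5.64 ± 1.42 in WT (SD, n = 3 each), and its log2 fold change was 1.47 (edgeR adjusted p = 0.0104). Laptm4b averaged 309 ± 11.3 CPM in rd10, 730 ± 76.5 in GFP and 691 ± 124 in WT, and its log2 fold change was -1.16 (edgeR adjusted p = 9.28e-04). Slc38a9, which senses lysosomal arginine for mTORC1, and Mfsd8, a membrane protein lost in a form of Batten disease, were lower at -0.77 and -0.76. Slc38a9 did not pass without rd10 3, and Mfsd8 did not when any one of the rd10 libraries, WT 1 or WT 3 was left out.

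In rd10 against WT, the proton pump, sorting, signalling and autophagy lists held 0 genes that rose by edgeR, beside 14.5% of all genes tested. DESeq2 called 1 sorting and 1 autophagy gene higher. In rd10 against GFP, 0 genes of these lists rose by edgeR. There 1 pump, 1 sorting, 3 mTORC1 and TFE and 3 autophagy genes fell, beside 15% of all genes tested. The values that follow are against WT, where 13.9% of all genes tested fell. Of 17 tested subunits of the V-ATPase, which acidifies the lysosome, 0 passed by edgeR in either direction against WT. At an unadjusted p under 0.05, 1 was higher and 2 lower, DESeq2 called 1 lower, and the median was 0.03. Atp6v0c and Atp6v0d2 read 0 in all 9 libraries and were not tested. Atp6v0c overlaps Atp6v0c-ps2. A count of 0 can mean no RNA or reads that were not assigned, and these were not told apart. The subunit with the highest CPM, Atp6v0a1, averaged 660 ± 79.1 CPM in rd10, 510 ± 115 in GFP and 486 ± 83.2 in WT (SD, n = 3 each), at a log2 fold change of 0.44 that did not pass. Of 16 genes that sort enzymes to the lysosome, 1 fell by edgeR, Gnptg at -0.67, a subunit of the phosphotransferase that makes the mannose phosphate tag. Gnptg overlaps Unkl, and it did not pass when any one of the rd10 libraries or WT 3 was left out. Of 18 genes of mTORC1 and TFE regulation 1 fell by edgeR, Flcn at -0.92 ± 0.16 (SE, adjusted p = 0.00194), while DESeq2 called 2 lower and 4 were lower at an unadjusted p under 0.05. The median of the list was -0.19. Flcn, which encodes folliculin, regulates the Rag GTPases that hold TFE factors at the lysosome. Of 18 autophagy genes 4 fell, with a median of -0.14. Uvrag, a regulator of the class III lipid kinase, was at -0.79, Atg12, a ubiquitin-like conjugation factor, at -0.77, Atg16l1, its binding partner, at -0.67, and Pik3c3, the lipid kinase itself, at -0.43. Atg16l1 did not pass without rd10 1 or rd10 2, and Pik3c3 did not in 8 of the 9 fits that left out 1 library.

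**Figure D5:**
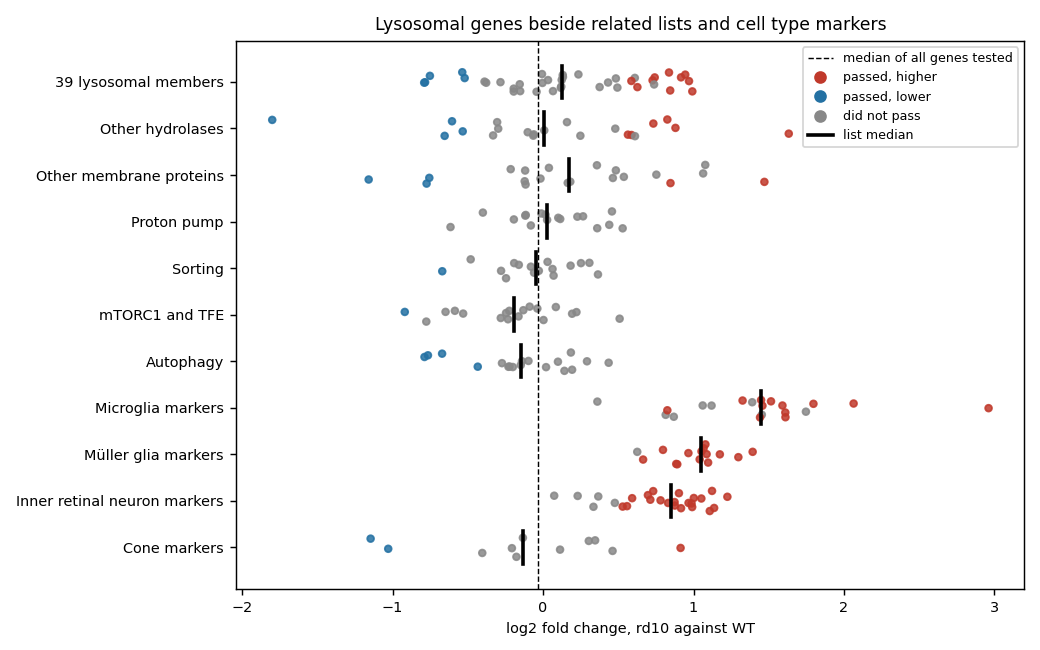
Log2 fold change in rd10 against WT (x axis) of each tested gene in the member list, in 6 further lysosomal and autophagy lists and in 4 marker lists (y axis), with thick bars at list medians and a dashed line at the median of all genes, -0.03. The members centre on 0.12, while the medians of the microglia, Müller glia and inner retinal neuron markers are 1.45, 1.05 and 0.85.

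Markers of several cell types differed between the same groups, where 14.5% of all genes tested were higher and 13.9% lower in rd10 against WT. Of 20 microglia markers 12 were higher in rd10 against WT, none was at 0 in all libraries, and their summed level was 259 to 284 CPM in rd10, 84.7 to 125 CPM in GFP and 98.2 to 119 CPM in WT. Mpeg1 and Itgam, which mark macrophages and microglia, had log2 fold changes of 1.80 and 2.06. Of 15 Müller glia markers 14 were higher, none was at 0, and they summed to 13960 to 14900 CPM in rd10, 7483 to 8224 CPM in GFP and 6433 to 8554 CPM in WT. Aqp4, the water channel of their endfeet, was at 1.30 and Sox2 at 1.10. Of 26 inner retinal neuron genes 21 were higher, with sums of 6738 to 7634 CPM in rd10, 4394 to 4667 CPM in GFP and 4371 to 4521 CPM in WT. All 17 rod genes were lower, with a median log2 fold change of -5.55, and of 11 cone genes 1 was higher and 2 were lower.

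Of 12 pigment epithelium genes 4 were higher and 1 was lower, with sums of 521 to 709 CPM in rd10, 403 to 599 CPM in GFP and 261.6 to 695 CPM in WT, so the groups overlapped. Of 10 vessel genes 1 was higher, Kdr at 1.89, and 9 did not pass. The list summed to 705 to 1004 CPM in rd10, 222.7 to 464 CPM in GFP and 228 to 397 CPM in WT. The sums of rd10 lay apart, but the median log2 fold change of the list was only 0.21 against WT and 0.08 against GFP. Of the 10 genes, 6 had a positive log2 fold change against WT and 5 against GFP. Blood cell genes summed to 1.03 to 1.97 CPM in rd10, 1.14 to 2.86 CPM in GFP and 1.62 to 4.61 CPM in WT. Of these 8 genes, Hbb-b1 and Ms4a1 were at 0 in all 9 libraries. Hba-a1 and Ly6g were also listed but had no matching symbol, so these sums include no globin counts. The part of these cell types in the values of the lysosomal genes was not tested.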

How the data were processed

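The authors deposited raw gene counts, 1 per gene and library, on the mouse build mm9 per the submitters' processing notes. The aligner, counting program, annotation and strand setting are not given in the sources used here, so reads of overlapping genes on opposite strands cannot be told apart. Positions of genes are those of the deposited files, 1-based on mm9. Per the labels, RNA was poly(A)-selected, fragmented and primed with random hexamers, and the replicates were biological. Whether retinae of one library or of several came from one animal is not given.

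Genes were kept by filterByExpr in edgeR 4.0.16 (R 4.3.3; minimum count 10, minimum total 15), which left 14300 genes. Libraries were scaled by TMM. All 9 libraries entered one quasi-likelihood fit of edgeR, with the group as its only term, and pairs of groups were tested as contrasts of it, with Benjamini-Hochberg adjustment over all genes tested and a threshold of 0.05. Adjusted p values come from this fit unless DESeq2 (version 1.42.0) is named. Fold changes used a prior count of 2. The SE is the log2 fold change divided by the square root of F. Exon lengths for levels per kilobase were unions of exons in GENCODE M21. The procedure was tested on simulated counts first. Within groups, pairs of libraries gave a chi-square of 13 to 76.1 per degree of freedom, so none was a repeat of another, and p-values measure the spread between these libraries.

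The members and lists were chosen with earlier results of these data known. All members are named, with values per library for those that were lower, those with the smallest adjusted p of each role and a few chosen after their values were seen (Manba, Ids, Psap, Scarb2). Of the other lysosomal lists, up to 4 genes that passed with the smallest adjusted p were named, or the most abundant one where none passed. A gene chosen by this rule is not reported here. Of the marker lists, up to 2 were named. In the mTORC1 and TFE, autophagy and inner retinal neuron lists, 5, 1 and 2 genes were matched by an older symbol.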

Additional observations from a re-analysis of the deposited data

How the results depend on the processing

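The counts moved most with the scaling, as did those of all genes. In rd10 against WT, 10 members were higher and 5 lower with TMM, 18 and 1 with library totals, 14 and 2 without rod and cone genes, 0 and 19 on the scale of inner retinal neuron genes, and 0 and 26 on that of Müller glia genes, a scale chosen after seeing the data. The lower shares on the last scales, 48.7% and 66.7%, were close to those of all genes, 51.3% and 63.2%. In rd10 against GFP, the counts were 11 and 4 with TMM, 21 and 1 with library totals, 17 and 1 without rod and cone genes, and 2 and 17 on the inner neuron scale. That scale shifts all genes alike, so which members change sign follows from their fold change with TMM. Against WT, the log2 fold changes became -0.039 for Lamp2 and -0.085 for Glb1, which no longer passed, and -0.62 for Ctsd, -0.55 for Galc, -0.44 for Hexa, -0.55 for Npc2, -0.56 for Asah1 and -0.54 for Ppt1, which then did. In 59 further cases, over 55 named genes and 21 alternatives each, the sign changed where neither fit passed. The Müller glia scale is not among these 21, and on it 9 of the 10 higher members were negative.

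Leaving out the 4 libraries with lens RNA was also chosen after seeing the data. It left 5 libraries, with 1 of WT assumed to vary like the other groups. The member median log2 fold change was then 0.35 against WT and 0.20 against GFP. For all genes tested it was 0.009 and -0.003. With 1 library left out at a time, 5 to 16 members were higher and 1 to 5 lower against WT. Against GFP, 9 to 12 were higher and 1 to 5 lower. Over all genes tested, 8.78% to 19.9% were then higher and 8.21% to 17.4% lower against WT. Against GFP these shares were 8.98% to 15.6% and 9.03% to 14.7%. The replicate block gave 8 higher and 3 lower against WT (20.5% and 7.69%, against 12.7% and 12.5% of all genes tested). The labels give the libraries only a replicate number. Deviations of same-numbered libraries correlated from -0.45 to 0.42 and did not correlate best with their own number throughout. The highest correlation was 0.574, between GFP 2 and WT 3. Deviations were centred within groups of 3 libraries, so these values cannot show whether libraries share a batch. Removing the trend with transcript length gave 12 and 3 (30.8% and 7.69%, against 16.5% and 19%). DESeq2 gave 13 and 6 (33.3% and 15.4%, against 18.2% and 15.9%). Its size factors in edgeR gave 12 and 5 (30.8% and 12.8%, against 15% and 13.2%). With no filter on low counts there were 10 and 4 (25.6% and 10.3%, against 11.7% and 10.3%). The compared groups alone gave 13 and 6 (33.3% and 15.4%, against 18.9% and 17.3%). Leaving out WT 3 and GFP 2 together gave 11 and 4 (28.2% and 10.3%, against 16.4% and 16.1%). Lamp2, Glb1 and Cln3 then no longer passed, and Arsa, Gusb and Scarb2 did. With a smaller prior count the log2 fold change of Manba was 1.015, past 2-fold. In GFP against WT the count was 0 in both directions under every alternative run. The cause of these shifts was not tested. Depth limits the rarest members most, such as Ctsk at under 3 CPM in each group.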
